A study of Aspergillus nidulans with 6 samples.

Results

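Peaks of the KaeA-HA ChIP-Seq experiment that carry a thioredoxin or peroxiredoxin gene or domain are described here. KaeA belongs to the KEOPS complex of *Aspergillus nidulans*, a filamentous fungus, in which it takes part in tRNA modification, and the experiment asked which chromatin regions are recovered with the haemagglutinin (HA) tagged protein. Members were the peak at *trxA* (AN0170), any peak overlapping *prxA* (AN8692), and any peak whose translated sequence matched a Pfam domain described as thioredoxin, redoxin or AhpC/TSA as a whole word. The search found 3 members among the 468 peaks. They are the *trxA* peak, a peak with a Redoxin domain on chromosome III and a peak with a DsbA-like thioredoxin domain on chromosome V. The gene table used here has 0 entries for AN8692, so that an overlap with *prxA* could not be determined and the chromosome III peak is named by its domain. The letters also occur within ferredoxin in the description of 1 other peak, at the nitrite reductase gene *niiA*, which was not counted as a member.

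The 6 libraries comprised input DNA of biological replicates 1, 2 and 3 and DNA immunoprecipitated with an anti-HA antibody (IP) from replicates 1, 2 and 3. All libraries came from mycelium of 1 strain, in which *kaeA* carries the HA tag with the *A. fumigatus pyrG* marker, in a background of *pyrG89*, *argB2*, *pabaB22*, *nkuA*Δ*::argB* and *riboB2*. The *riboB* allele is written as *riboB2* in the label of input replicate 1 and differs in the labels of the other libraries, while the study's methods give *riboB2* for the strain. Mycelia were grown in minimal medium with nitrate and glucose and crosslinked with 1% formaldehyde for 15 min, and no library came from a strain without the tag. Counts on peaks summed to between 162458 and 377238 per library, and the smallest count of any peak was 59. IP replicate 2 had a correlation of log2 library-scaled counts with the other IP libraries of 0.977 in both cases, against 0.988 between IP replicates 1 and 3.

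Thioredoxins are small proteins with a pair of redox-active cysteines that reduce disulfide bonds in other proteins, and thioredoxin reductase restores them with NADPH. Peroxiredoxins remove peroxides through a reactive cysteine and are in turn reduced by thioredoxin. Thioredoxin also supplies electrons to ribonucleotide reductase and to sulfate assimilation, and *A. nidulans* strains lacking *trxA* grow poorly. The DsbA fold is known from a bacterial enzyme that introduces disulfide bonds, and it contains a thioredoxin-like domain.

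The *trxA* peak lies on chromosome VIII from 4331188 to 4332410 (ASM1142v1), within AN0170, which extends from 4331177 to 4332658. It was 1223 bp long and covered 82.5% of the gene, starting 11 bp inside one end of the gene and stopping 248 bp before the other. Its summit at 4332165 was 245 bp from the end of the peak and 493 bp from the end of the gene. The authors' annotation gives its location class as 3′ UTR. A reading frame of 117 amino acids translated from the peak matched the Thioredoxin domain (PF00085) between residues 15 and 113 with an E-value of 1.3e-31.

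The Redoxin peak extends from 3053961 to 3054834 on chromosome III and was 874 bp long, with its summit at 3054506. It is classed as distal intergenic, as is *prxA* in the study's gene list, where *prxA* is described as a thioredoxin-dependent peroxidase. The closest entries of the gene table are 25558 bp before (AN8697) and 76888 bp after (AN8668) the peak, but the table lacks AN8692 and so does not show that this stretch is free of genes. The number AN8692 falls between AN8697 and AN8668, the entries on either side of the peak. Without coordinates for *prxA*, whether the peak lies at this gene could not be determined here. In the authors' annotation, 2 reading frames translated from the peak matched the Redoxin domain (PF08534), one of 110 amino acids between residues 26 and 96 (E-value 1.3e-18) and one of 59 amino acids between residues 1 and 56 (E-value 5.3e-11). It was the only one of the 468 peaks annotated with this domain, and 186 of them had any Pfam annotation.

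The DsbA-like peak extends from 1074947 to 1075347 on chromosome V. It was 401 bp long, lay inside AN10641 (1074890 to 1075668) and covered 51.5% of that gene, and it is classed as exon. A reading frame of 120 amino acids matched the DSBA-like thioredoxin domain (PF01323) between residues 6 and 108 with an E-value of 2.2e-09.

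**Figure D1:**
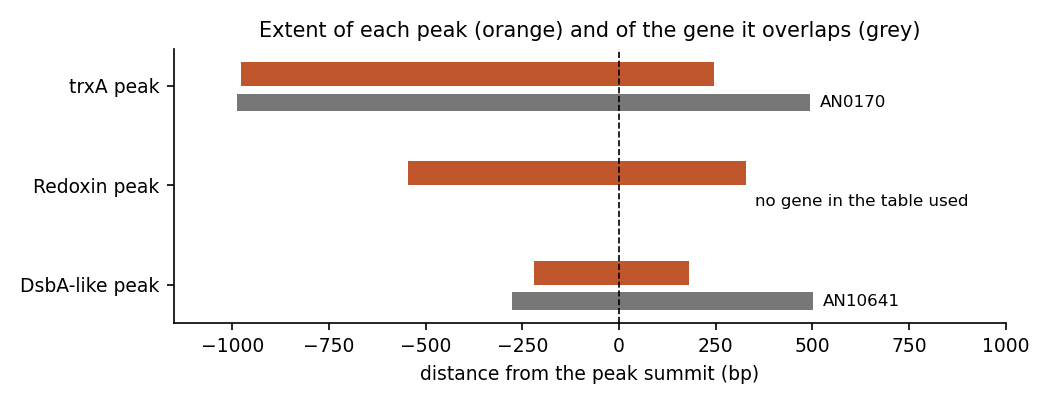
Extent of the 3 peaks (orange) and of the overlapped genes (grey) as distance in bp from each peak's summit (dashed line). The *trxA* peak spans most of AN0170, the DsbA-like peak spans 51.5% of AN10641, and no gene of the table used overlaps the Redoxin peak.

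At the *trxA* peak, IP exceeded input 1.66-fold after scaling, relative to the typical peak. Raw counts were 690, 939 and 548 in input replicates 1, 2 and 3 and 1868, 1271 and 1349 in IP replicates 1, 2 and 3. After scaling for library size with TMM factors, these became 737, 851 and 856 normalized counts in input and 1349, 1390 and 1321 in IP. Every IP library lay above every input library, the lowest IP value being 1.54-fold the highest input value, and input replicate 1 was the lowest of the 6. The same order of groups was found for 77 of the 468 peaks (16.5%). The *trxA* peak held between 0.293% and 0.337% of the counts of an input library and between 0.495% and 0.503% of those of an IP library.

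The mean normalized count of the *trxA* peak was 814.6 ± 67.5 (SD, n = 3) in input and 1354 ± 34.6 (SD, n = 3) in IP. Its log2 fold change of 0.73 (standard error 0.08, 95% interval 0.56 to 0.91) passed the threshold with an adjusted p of 2.76e-06 (edgeR's quasi-likelihood test over all 468 peaks, Benjamini-Hochberg adjustment). The 468 peaks were called on these same libraries as enriched in IP, so the test's p-values and intervals do not allow for that selection. In this comparison 76 of the 468 peaks were called at an adjusted p under 0.05 (16.2%), of which 52 were higher in IP (11.1%) and 24 lower (5.13%). With library size alone in place of TMM factors, the calls became 38 higher and 60 lower while the log2 fold change moved from -0.02 to -0.13 for the median peak and to 0.63 for *trxA*. Without IP replicate 2, 132 peaks were called. The log2 ratio of same-numbered libraries was 0.87, 0.71 and 0.63 for *trxA* in replicates 1, 2 and 3, so that the direction was shared by all of them. All 3 ratios shared a direction, higher or lower, in 188 of the 468 peaks. For *trxA* alone, an exact permutation test of the normalized counts (two-sided) had p = 0.10, the smallest that groups of 3 allow.

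The Redoxin peak was also higher in IP, by 1.38-fold on the same scale. Its raw counts were 577, 613 and 361 in input replicates 1, 2 and 3 and 1067, 705 and 874 in IP replicates 1, 2 and 3. The normalized counts were 616, 555 and 564 in input and 771, 771 and 856 in IP. The groups did not overlap here either, with IP replicate 3 the highest and a gap of 1.25-fold between the lowest IP and the highest input library. Their means were 578 ± 32.8 (SD, n = 3) in input and 799 ± 49.1 (SD, n = 3) in IP. The log2 fold change was 0.47 (standard error 0.09, 95% interval 0.28 to 0.65, adjusted p = 0.000661, edgeR), with log2 ratios of 0.32, 0.47 and 0.60 in replicates 1, 2 and 3.

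Relative to the typical peak, the DsbA-like peak showed no such difference. Its raw counts were 235, 297 and 162 in input replicates 1, 2 and 3 and 351, 234 and 266 in IP replicates 1, 2 and 3. These correspond to 251, 269 and 253 normalized counts in input and 254, 256 and 261 in IP, so that all IP values fell within the range of the input values. The mean was 258 ± 9.88 (SD, n = 3) in input and 257 ± 3.54 (SD, n = 3) in IP. The log2 fold change of -0.01 (standard error 0.11) was not called (adjusted p = 0.979, edgeR), and its 95% interval, from -0.23 to 0.21, corresponds to between 0.852-fold and 1.16-fold. Thus 2 of the 3 members were called, both higher in IP, against 11.1% of all peaks. The *trxA* peak was a member by name, with earlier results known, so this count is not independent evidence. Of the 67 peaks that cover at least 80% of a gene, as the *trxA* peak does, 53.7% were higher in IP.

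**Figure D2:**
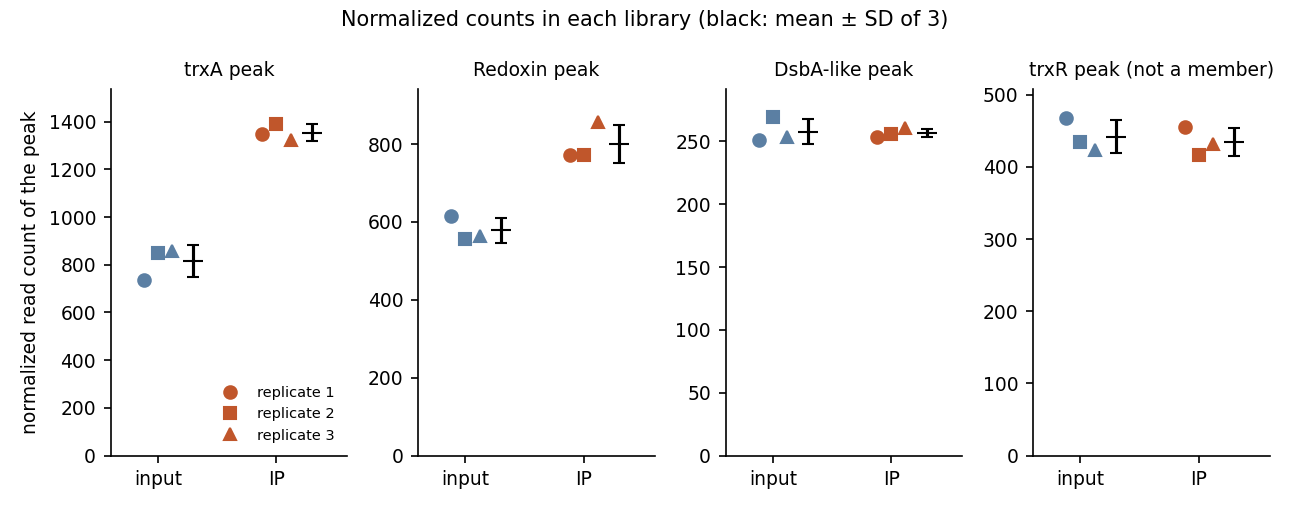
Normalized read counts of the 3 members and of the thioredoxin reductase gene *trxR* in each input (blue) and IP (orange) library, with the mean and SD of 3 libraries in black. IP and input libraries are apart for the *trxA* peak (1321 and above against 856 and below) and the Redoxin peak (771 and above against 616 and below) and overlap for the others.

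All fold changes above are relative to the typical peak, since the scaling was computed on peaks that had already been selected as enriched. When the test was restricted to the 60 peaks whose MACS2 fold enrichment was 2 or more, and centred on them, the log2 fold change of *trxA* was 0.27 (adjusted p = 0.00938, edgeR). That of the Redoxin peak was then -0.0016 (adjusted p = 0.989, edgeR), with a standard error of 0.12 that does not set it apart from 0. Both values were lower than in the test of all peaks, as the 60 peaks were centred on themselves. The DsbA-like peak is not among these 60 peaks. When the median log2 fold change was instead set to that of the MACS2 fold enrichment, the log2 fold changes of *trxA*, the Redoxin peak and the DsbA-like peak were 1.37, 1.10 and 0.63, and all 3 were among the 461 peaks then called.

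The members were also compared with each other within each library, where no scaling factor enters. These ratios use the same counts, so they restate how the fold changes of a pair differ and remain relative to another peak. In input replicates 1, 2 and 3, raw counts at *trxA* were 2.94, 3.16 and 3.38 times those at the DsbA-like peak. In IP replicates 1, 2 and 3 they were 5.32, 5.43 and 5.07 times as many. The ratio was 1.67-fold higher in IP than in input (geometric means 5.27 and 3.15), and the groups did not overlap. For the Redoxin peak against the DsbA-like peak, the ratios were 2.46, 2.06 and 2.23 in input and 3.04, 3.01 and 3.29 in IP, a 1.39-fold difference, again without overlap. How many other peaks have ratios that separate in this way was not computed. The normalized counts themselves separated with IP above input for 77 of the 468 peaks (16.5%) and with IP below input for 53. The ratio of *trxA* to the Redoxin peak differed least. It was 1.20, 1.53 and 1.52 in input and 1.75, 1.80 and 1.54 in IP, with geometric means of 1.41 and 1.70. The highest input ratio of this pair (1.53) nearly reached the lowest IP ratio (1.54). Of 4 pairs compared in this way, the last being *trxA* with its reductase gene below, each had p = 0.10 by an exact permutation test (two-sided), again the smallest that groups of 3 allow, and an adjusted p of 0.10, so none passes 0.05 by this test.

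**Figure D3:**
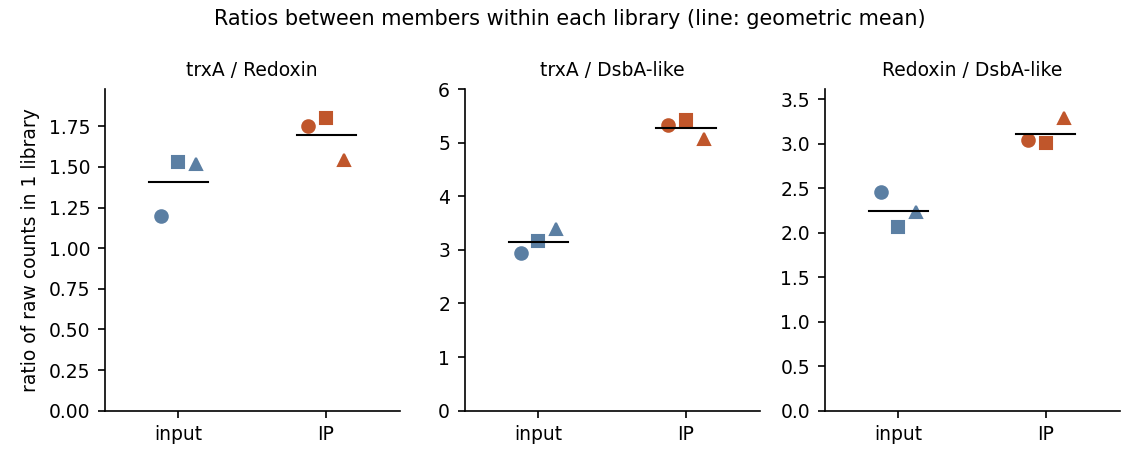
Ratio of raw counts between pairs of members within each input (blue) and IP (orange) library, with the geometric mean of 3 libraries as a line. The ratios of *trxA* and of the Redoxin peak to the DsbA-like peak are separated between input and IP, while those of *trxA* to the Redoxin peak are close at the nearest libraries, 1.53 in input and 1.54 in IP.

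Coverage in input was nearly equal at the members. Per kb of peak, the mean normalized count in input was 666 for *trxA*, 662 for the Redoxin peak and 643 for the DsbA-like peak, against a median of 656 over all 468 peaks. In IP the values per kb were 1107, 915 and 640, against a median of 668. By IP density the 3 peaks ranked 68, 117 and 285 of 468, whereas by input density they ranked 222, 225 and 254.

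The values of the authors' peak calling, which merged the replicates, gave the 3 members the same order. The MACS2 fold enrichment was 3.22 for *trxA*, 2.49 for the Redoxin peak and 1.58 for the DsbA-like peak, compared with a median of 1.53 and a highest value of 6.18. The pileup at the summit was 444, 309 and 169 fragments, and the −log10 of the q-value was 91.6, 41.2 and 5.64. By fold enrichment *trxA* ranked 13, the Redoxin peak 36 and the DsbA-like peak 190 of 468. These values come from the same libraries as the counts and are no independent measurement. By the log2 fold change from the counts, the ranks were 10, 28 and 213.

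**Figure D4:**
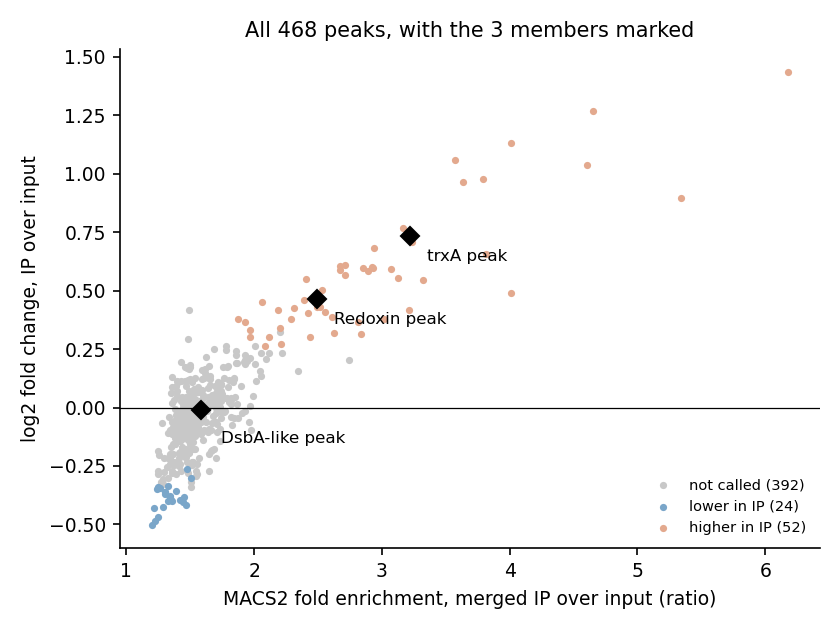
MACS2 fold enrichment (ratio, x axis) and log2 fold change of IP over input (y axis) of all 468 peaks, coloured by the call at an adjusted p under 0.05, with the 3 members as diamonds. The *trxA* peak (3.22 and 0.73) and the Redoxin peak (2.49 and 0.47) lie among the peaks higher in IP, and the DsbA-like peak (1.58 and -0.01) lies among the 392 that were not called.

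Length differed between the members, and across the 468 peaks, which are not independent replicates, the log2 fold change rose with peak length (Spearman's rho 0.507). The *trxA* and Redoxin peaks, at 1223 and 874 bp, were longer than the median of 397 bp, and the DsbA-like peak, at 401 bp, was close to it. With the trend on length removed, an alternative chosen after the data were seen, *trxA* had a log2 fold change of 0.55 (adjusted p = 0.000188) and the Redoxin peak one of 0.37 (adjusted p = 0.00902), both from edgeR's quasi-likelihood test. Among the 67 peaks that cover at least 80% of a gene, 36 were higher in IP and *trxA* ranked 9 by log2 fold change, although it ranked 52 by length. The median log2 fold change of these 67 peaks was 0.30.

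The nearest peaks on either side of each member were also examined. On chromosome VIII the nearest peak before *trxA* was 42.8 kb away, at AN0186, and the nearest after it was 140.0 kb away, at AN0122. Their log2 fold changes of 0.42 (standard error 0.14, adjusted p = 0.0566) and 0.20 (standard error 0.08, adjusted p = 0.0839) were not called by the edgeR test, although AN0186 was called with the replicate number as a block (0.40, adjusted p = 0.0430, edgeR). The gene next to *trxA*, AN0169, begins 252 bp after the end of the *trxA* peak and overlaps none of it. The Redoxin peak had a 755-bp neighbour 6404 bp away (3061239 to 3061993), which overlaps no gene of the table and had a log2 fold change of -0.0013 (standard error 0.10), with 404 ± 9.18 (SD, n = 3) normalized counts in input and 402 ± 32.3 (SD, n = 3) in IP. The neighbours of the DsbA-like peak lay 4037 bp away at AN5145 (log2 fold change -0.06, not called) and 42.5 kb away at AN5130. The latter gene, whose orthologues have coproporphyrinogen oxidase activity in haem synthesis, was called higher in IP (0.50, adjusted p = 0.000259, edgeR).

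Peaks at other genes of the thioredoxin, glutathione and peroxide defence systems were then counted. Of a list of 15 such genes, 14 were found in the gene table and 2 of these overlapped a peak (14.3%), *trxA* and the thioredoxin reductase gene *trxR* (AN3581). Over all 10516 genes of the table, 312 overlapped a peak (2.97%), 48 of them one higher in IP and 15 one lower. The *trxA* peak was already known when the list was drawn up, so these shares are not an independent comparison. The *trxR* peak lies on chromosome II from 3642408 to 3643264 and covered 57.3% of the gene. Its normalized counts were 468, 434 and 423 in input replicates 1, 2 and 3 and 455, 417 and 432 in IP replicates 1, 2 and 3. These groups overlapped, and the log2 fold change of -0.02 (standard error 0.09, 95% interval -0.22 to 0.17, adjusted p = 0.941, edgeR) was not called. Thus thioredoxin and the enzyme that reduces it both had a MACS2 peak (fold enrichment 3.22 and 1.48), and *trxA* alone of the pair was called. Within libraries, raw counts at *trxA* were 1.58, 1.96 and 2.02 times those at *trxR* in input replicates 1, 2 and 3 and 2.97, 3.34 and 3.06 times in IP replicates 1, 2 and 3. The ratio was thus 1.69-fold higher in IP, without overlap between the groups, though the share of other peaks with such a separation was not computed. No peak overlapped the putative thioredoxin reductase gene *trxB* (AN8218) or the 1-Cys peroxiredoxin gene AN10223. The same held for the catalase genes *catA*, *catB* and *catC*, the catalase-peroxidase gene *cpeA*, the superoxide dismutase genes *sodA* and *sodB*, the glutathione genes *glrA* and *gpxA*, and the regulator genes *napA* and *srrA*. The count table covers peaks alone, so these genes have no value here.

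The study's annotation of genes for cellular response to oxidative stress lists *trxA* and *prxA* with 5 others. It was drawn from genes the study had chosen on these libraries, so the calls are not independent evidence. Each of the 6 genes found in the table had a peak, which was higher in IP for 3 genes and lower for 0, with a median log2 fold change of 0.24. Over all peaks 11.1% were higher in IP and the median was -0.02. These 6 peaks each covered over 80% of their gene, however, and of the 67 peaks that do so 53.7% were higher in IP, with a median of 0.30. After *trxA*, the called ones were *sidA* (AN5823, 0.42), which encodes ornithine monooxygenase of siderophore synthesis, and AN5975, a putative mannitol-1-phosphate dehydrogenase. AN5975 had 775 ± 44.7 (SD, n = 3) normalized counts in input and 955 ± 57.3 (SD, n = 3) in IP, a log2 fold change of 0.30 (adjusted p = 0.0174, edgeR). The iron regulator gene *hapX* (AN8251, 0.17), the putative nitroreductase gene AN2343 (0.13) and the stomatin-type gene *stoA* (AN3163, 0.13) were not called, with adjusted p-values of 0.20, 0.606 and 0.491 from edgeR.

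**Figure D5:**
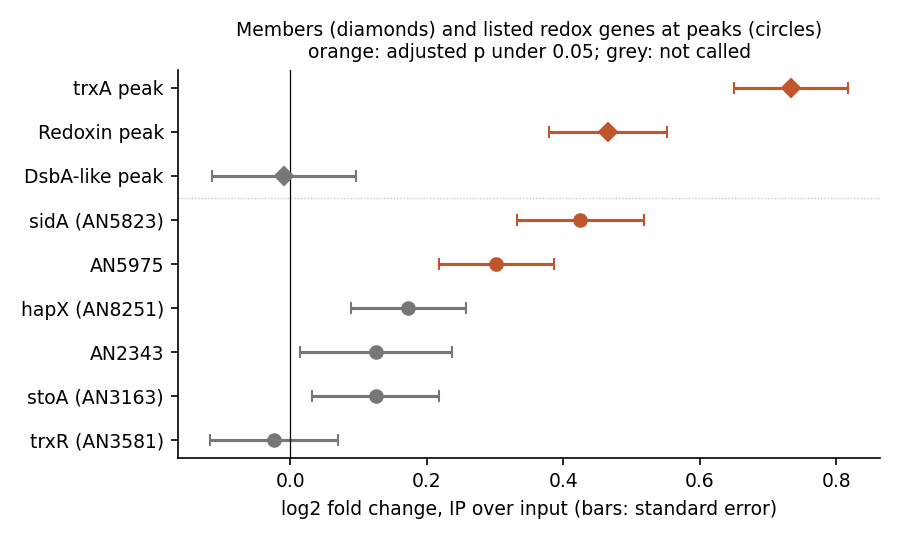
Log2 fold change of IP over input with its standard error for the 3 members (diamonds) and for the listed redox and oxidative stress genes that overlap a peak (circles), orange where the adjusted p is under 0.05. The *trxA* peak has the highest value of those drawn, 0.73, and *trxR* lies at -0.02.

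The pattern over the 6 libraries was compared between *trxA* and each of the other 467 peaks by Pearson's r of log2 library-scaled counts, as a description over libraries that share their depth and their group. The 5 highest values, from 0.986 to 0.995, belonged to peaks that were all called higher in IP. They lie at *niiA* (AN1007), AN4295, *hsp104* (AN0858), AN7170 and *aclB* (AN2436), of which *niiA* encodes nitrite reductase, *hsp104* a heat shock protein that dissolves protein aggregates and *aclB* an ATP citrate lyase subunit. In *niiA*, the closest, input was 1796, 1949 and 1989 and IP was 2697, 2660 and 2526 normalized counts in replicates 1, 2 and 3. As in *trxA*, input replicate 1 was the lowest of the 6 libraries and IP replicate 3 the lowest of the IP libraries. The Redoxin peak ranked 43 with r = 0.895, and its highest input value was in replicate 1, where that of *trxA* was lowest. The DsbA-like peak ranked 198 with r = 0.014.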

How the data were processed

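The 6 libraries were grouped by their labels into input and IP, with 3 biological replicates each. The authors used Trimmomatic for trimming, BWA for separate mapping of the libraries to ASM1142v1, Picard to remove optical duplicates and MACS2 to call peaks on merged replicates. The deposited table holds raw read counts per peak and library, and the counting mode is not given in the sources used here. The deposited peak list gives the pileup (signal) at the summit, the fold enrichment (ratio) over input and the −log10 of q, as the authors' MACS2 run wrote them. The authors' own edgeR table (log2 fold change, average log CPM, likelihood ratio, p-value and FDR) was not used.

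All 468 peaks were tested with the quasi-likelihood test of edgeR 4.0.16 (R 4.3.3, limma 3.58.1) with TMM factors, Benjamini-Hochberg adjustment and a threshold of 0.05. For normalized counts, each count was multiplied by the mean effective library size over that of its own library. Input is described in the study's methods as DNA before immunoprecipitation from independent biological experiments, so libraries with the same number were taken as pairs in an alternative with the replicate number as a block. Deviations of same-numbered input and IP libraries from their group means had correlations of -0.11, -0.05 and 0.03 over peaks. The standard error is the absolute log2 fold change divided by the square root of F. On simulated data for this comparison (468 peaks, 200 changed), 99% of 1.5-fold and 100% of 2-fold changes were recovered, and 5 of the unchanged peaks were called. Simulated counts were drawn independently with the spread edgeR had fitted, and as many peaks were raised as lowered. The selection of peaks as enriched was not simulated, so the recovery holds for these settings alone. Genes of the RefSeq table of ASM1142v1 were assigned to every peak sharing 1 bp or more, without regard to strand. The domain search used the authors' Pfam annotation of translated peaks, which covers 186 peaks. Genes named are the members, listed genes at peaks, neighbouring peaks and the 5 peaks most like *trxA*. Members and lists were chosen with earlier results of these data known. Sequences and promoter motifs were not analysed here. DESeq2 1.42.0, limma-voom, other scalings, filters and left-out libraries were alternatives. Intervals cover the spread between libraries as edgeR models it. Tables were handled with pandas 2.3.3, numpy 2.4.6 and scipy 1.17.1.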

Additional observations from a re-analysis of the deposited data

How the results depend on the processing

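The *trxA* peak stayed called and higher in IP in all 18 alternatives, with log2 fold changes from 0.67 to 0.77 when single libraries were left out and an adjusted p of at most 0.00938 (edgeR, DESeq2 or limma-voom). The Redoxin peak kept its call in 17 of 18, from 0.41 to 0.51 with single libraries left out, and lost it with a value of -0.0016 when only peaks with 2-fold or higher MACS2 enrichment were fitted. The DsbA-like peak changed sign with upper quartile factors (0.0040), with the length trend removed (0.041) and among the fits that left out a library (-0.030 to 0.026), where it was not called, and with the centring on the MACS2 median, where it was (0.63). The number of called peaks was 22 among those 60 peaks and 461 with that centring, and from 47 (without IP replicate 1) to 132 (without IP replicate 2) when single libraries were left out. It was 49 without input replicate 1. The cause of these differences was not tested, except that the restriction to 60 peaks leaves fewer to call. With the replicate block, 83 peaks were called, the call changed for 1 of the 20 peaks named in the text (AN0186), and the log2 fold changes were 0.74, 0.46 and -0.0065 for *trxA*, the Redoxin and the DsbA-like peak. At least 50% of the gene as the overlap left the genes of the members as they were, and the authors' nearest gene named neither. No alternative could be computed for *prxA*, and the DsbA-like peak was removed by both filters.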
